A study of Mus musculus with 6 samples.

Results

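Genes of calcium cycling were followed, 10 in all, in cultured mouse heart muscle cells: Ryr2, Atp2a2, Pln, Sln, Casq2, Trdn, Jph2, Slc8a1, Hrc and Camk2d. They were taken by symbol, as the rows of the array's value table that the platform annotation pairs with exactly 1 of these names. All 10 of 10 were found, each with 1 row, among 22180 genes with a single symbol. The cells were cardiomyocytes from hearts of 1-day-old C57BL/6 mice, enriched by letting faster-attaching cells settle for 1 hour. All 6 samples spent 12 h in low oxygen (2% O2, with 93% N2 and 5% CO2), so the controls were hypoxic too, and no comparison with normal oxygen was made. Fibroblast growth factor 21 (FGF21), a hormone of the FGF family, was present at 1 µg/ml in 3 samples and absent from 3 controls. Each sample was measured on 1 Affymetrix Mouse Gene 2.0 ST array, and the question was which genes FGF21 regulates in these cells. The titles call the samples biological replicates, but the labels do not say whether they came from separate litters or cultures, so the spread that the p-values rest on may be technical in part.

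Each heartbeat is driven by a pulse of calcium from the sarcoplasmic reticulum, the internal calcium store of muscle. A little calcium entering from outside opens the ryanodine receptor, encoded by Ryr2, and the store empties into the cytosol. The muscle relaxes when the pump SERCA2, encoded by Atp2a2, returns most of this calcium to the store and the sodium-calcium exchanger, encoded by Slc8a1, carries the rest out of the cell. Small membrane proteins restrain the pump, calcium-binding proteins hold the ion inside the store, and the kinase CaMKII tunes both release and uptake. In the newborn heart this system is still maturing.

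With FGF21, none of the 10 genes changed past the test, and their differences were small. Values are levels on the log2 scale of the robust multi-array average (RMA), in which a step of 1 is a doubling, and a difference is FGF21 minus control with its standard error (SE). Differences ran from -0.17 for Ryr2 to 0.15 for Trdn, or 1.13-fold lower to 1.11-fold higher. Of the 10 genes, 7 had lower means with FGF21 and 3 higher, against 52.2% lower over all genes. Their median difference was -0.04, against -0.01 over all genes. When genes below the median level were left out, 37.4% of the rest were lower, so the 7 of 10 stood beside a different background there. At a limma adjusted p under 0.05, over all genes, 0 of the 10 passed (0% of all genes did). When only genes above the median level were fitted it was again 0 of 10, against 0.523% of those genes. At an unadjusted p under 0.05 it was 0 of 10, against 11.7% of all genes, of which 5.11% were lower and 6.59% higher. A difference of at least 0.2 in size was seen for 0 of 10 and for 8.76% of all genes. The 3 FGF21 values overlapped the 3 control values for all 10 genes, where 17.1% of all genes had groups apart, 8.14% lower and 8.99% higher. At an unadjusted p under 0.05 an ordinary equal-variance statistic gave 0 of 10, against 9.07% of all genes, and limma with the trend and robust prior gave 1, Trdn, against 11.7% of all genes.

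**Figure D1:**
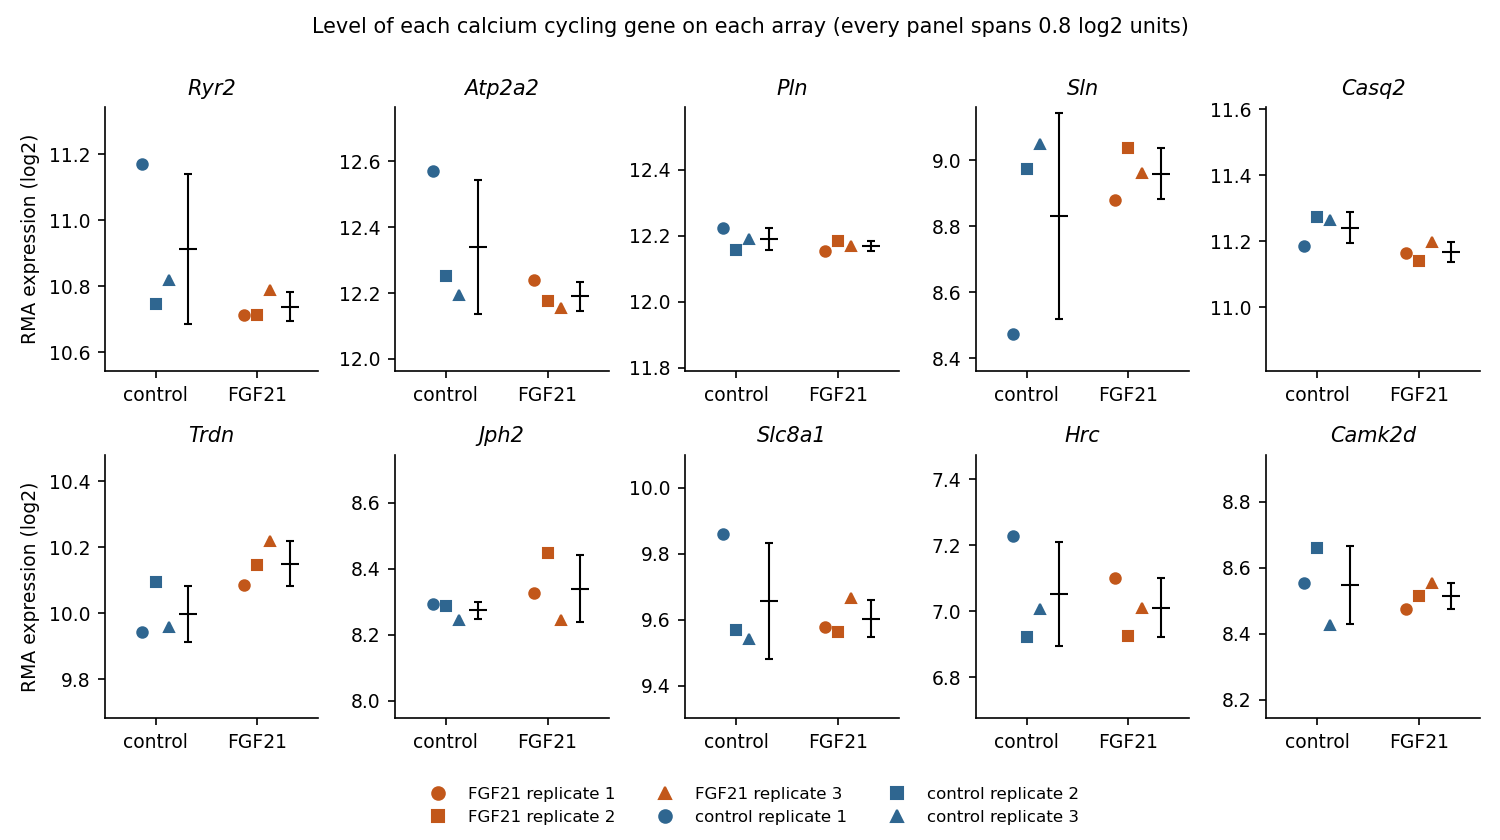
Level of each of the 10 genes on each array, as RMA expression in log2 units, with controls in blue and FGF21 in orange; symbols give the replicate number and the black bars the mean and SD of 3 arrays. Every panel spans the same height, and the groups overlap in each. Control replicate 1 is the highest array for Ryr2, Atp2a2, Pln, Slc8a1 and Hrc and the lowest for Sln and Trdn.

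The release unit was measured by Ryr2, Trdn and Jph2. Ryr2, the channel itself, stood at 10.71, 10.71 and 10.79 on the FGF21 arrays and at 11.17, 10.75 and 10.82 on the controls. Control replicate 1 lay above the other 5 arrays, and without it the groups lay close together. The difference was -0.17 ± 0.10 (SE; limma adjusted p of 0.539), with a 95% interval from 0.755-fold to 1.04-fold. Without control replicate 1 it was -0.04 ± 0.07, and without control replicate 2, a low control, it was -0.26 (limma unadjusted p of 0.0395, adjusted p of 0.383). Trdn encodes triadin, which links the channel to the calcium buffer in the store. It stood at 10.09, 10.14 and 10.22 with FGF21 and at 9.94, 10.10 and 9.96 without. All 3 FGF21 values lay above 2 of the 3 controls, and the second control lay within them. This was the smallest p of the 10 genes, at a difference of 0.15 ± 0.07 (limma unadjusted p of 0.0570, adjusted p of 0.447) and an interval from 0.996-fold to 1.24-fold. Over the alternatives the Trdn difference stayed between 0.12 and 0.20. Its limma unadjusted p was 0.0259 without control replicate 2, 0.0425 without FGF21 replicate 1 and 0.0388 with median centring. The adjusted p of these was 0.347, 0.348 and 0.386. Without any other single array its unadjusted p was 0.0989 to 0.180. Jph2 encodes junctophilin 2, which holds the store's membrane close to the cell surface. Its levels were 8.33, 8.45 and 8.24 with FGF21 and 8.29, 8.29 and 8.24 without. On both sides the third array was at the same level, and the difference of 0.07 ± 0.07 was no larger than its error (limma adjusted p of 0.748). Leaving out FGF21 replicate 2 made it 0.01, and leaving out FGF21 replicate 3 made it 0.11.

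Uptake into the store was measured by Atp2a2 and its 2 inhibitors. Atp2a2, the pump, stood at 12.24, 12.18 and 12.16 with FGF21 and at 12.57, 12.25 and 12.19 without. As for Ryr2, control replicate 1 was the high array and the other 2 controls were near the FGF21 values. The difference was -0.15 ± 0.10 (limma adjusted p of 0.574; interval 0.778-fold to 1.05-fold), and -0.03 ± 0.07 without control replicate 1. Pln encodes phospholamban, which slows the pump until it is phosphorylated. It was the steadiest of the 10 genes, at 12.15, 12.19 and 12.17 with FGF21 and 12.22, 12.16 and 12.19 without. All 6 values lay within 0.0690 of each other, and the difference was -0.02 ± 0.06 (limma adjusted p of 0.924). Its interval, 0.900-fold to 1.08-fold, was the narrowest of the 10. Sln encodes sarcolipin, a related inhibitor of the pump that is found mainly in the atria of the mouse heart. It stood at 8.88, 9.04 and 8.96 with FGF21 and at 8.47, 8.97 and 9.05 without. Here control replicate 1 was the low array, and the other controls matched the FGF21 range. The difference of 0.13 ± 0.13 (limma adjusted p of 0.742) had the widest interval of the 10 genes, 0.890-fold to 1.34-fold, and turned to -0.05 ± 0.07 without control replicate 1.

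**Figure D2:**
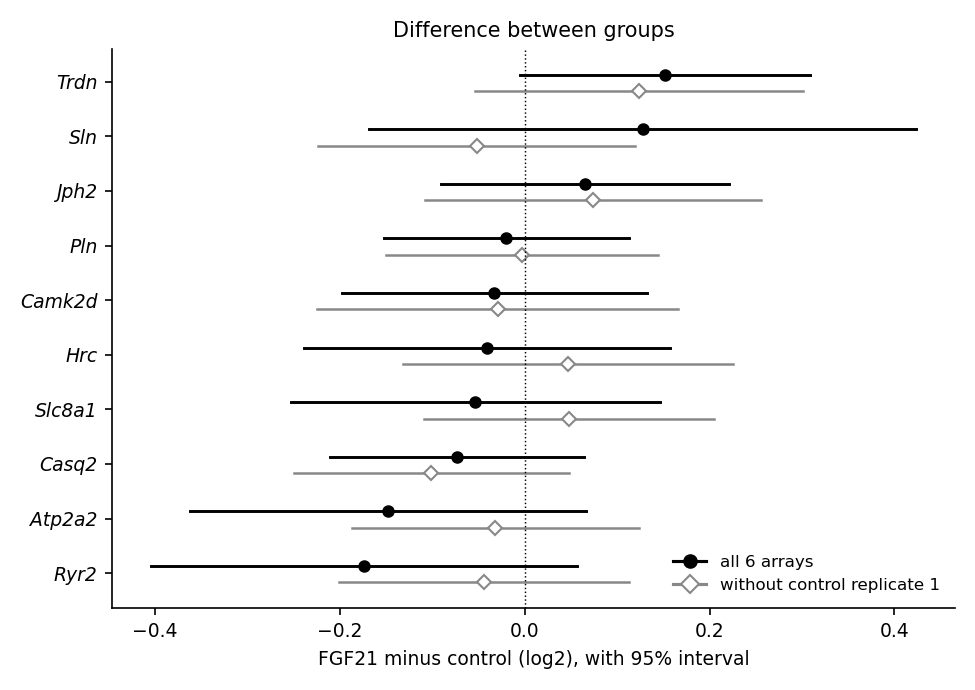
Difference between groups for each of the 10 genes, FGF21 minus control in log2 units, with 95% intervals from limma; black circles use all 6 arrays and open diamonds leave out control replicate 1. All 20 intervals include 0. When that array is left out, the points of Ryr2, Atp2a2, Pln, Trdn and Camk2d move toward 0. Those of Sln, Slc8a1 and Hrc move past it, and those of Casq2 and Jph2 move away from it.

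Calcium inside the store is held by the products of Casq2 and Hrc. Casq2 encodes calsequestrin 2, the main buffer. It stood at 11.16, 11.14 and 11.20 with FGF21 and at 11.19, 11.27 and 11.26 without. Control replicates 2 and 3 lay above all FGF21 values and replicate 1 within them. The difference was -0.07 ± 0.06 (limma adjusted p of 0.669; interval 0.864-fold to 1.05-fold). Unlike Ryr2 and Atp2a2, it was larger without control replicate 1, at -0.10 ± 0.06, but still did not pass (limma adjusted p of 0.620). Hrc encodes the histidine-rich calcium-binding protein. It was the dimmest of the 10 rows but still above 67.6% of genes in mean level, at 7.10, 6.92 and 7.01 with FGF21 and 7.23, 6.92 and 7.01 without. Replicates 2 and 3 were at like levels in both groups, and replicate 1 was the highest of each. The difference was -0.04 ± 0.09 (limma adjusted p of 0.892), and 0.05 ± 0.08 without control replicate 1.

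Exchange at the cell surface and control by phosphorylation were measured by Slc8a1 and Camk2d. Slc8a1, the exchanger, stood at 9.58, 9.56 and 9.67 with FGF21 and at 9.86, 9.57 and 9.54 without. Control replicate 1 was again above all others. The difference of -0.05 ± 0.09 (limma adjusted p of 0.853; interval 0.839-fold to 1.11-fold) turned to 0.05 ± 0.07 without it. Camk2d encodes the main CaMKII subunit of the heart, which phosphorylates the ryanodine receptor and phospholamban. It stood at 8.47, 8.51 and 8.55 with FGF21, all between the lowest and the highest control, which were at 8.55, 8.66 and 8.43. Its difference was -0.03 ± 0.07 (limma adjusted p of 0.896; interval 0.872-fold to 1.10-fold).

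Because p-values that miss the threshold do not show that levels were alike, the intervals give what these arrays can bound. The largest rise inside any of the 10 intervals was 1.34-fold, for Sln, and the largest fall was to 0.755-fold, for Ryr2. For Pln, changes beyond 0.900-fold and 1.08-fold lay outside the 95% interval.

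For Ryr2, Atp2a2, Sln, Slc8a1 and Hrc the spread among the controls was set largely by 1 array, control replicate 1. For Camk2d that array lay between the other controls, and for Trdn control replicate 2 was the one apart. The SD was larger in controls than with FGF21 for 9 of the 10 genes, Jph2 being the exception, against 52.1% of all genes. The median SD over the 10 genes was 0.138 in controls and 0.0497 with FGF21, where all genes had 0.0841 and 0.0797. Control replicate 1 differed from the mean of the other 5 arrays by 0.42 for Ryr2, 0.37 for Atp2a2, 0.28 for Slc8a1, 0.24 for Hrc and -0.51 for Sln. For Pln, Casq2, Jph2 and Camk2d it differed by no more than 0.0531, and for Trdn by -0.16. A difference of more than 0.3 on this array was seen for 3 of the 10 genes and for 5.14% of all genes. On each of the other 5 arrays, 0 of the 10 genes and 1.57% to 3.84% of all genes differed from the rest by that much. This array was singled out after the values were seen.

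**Figure D3:**
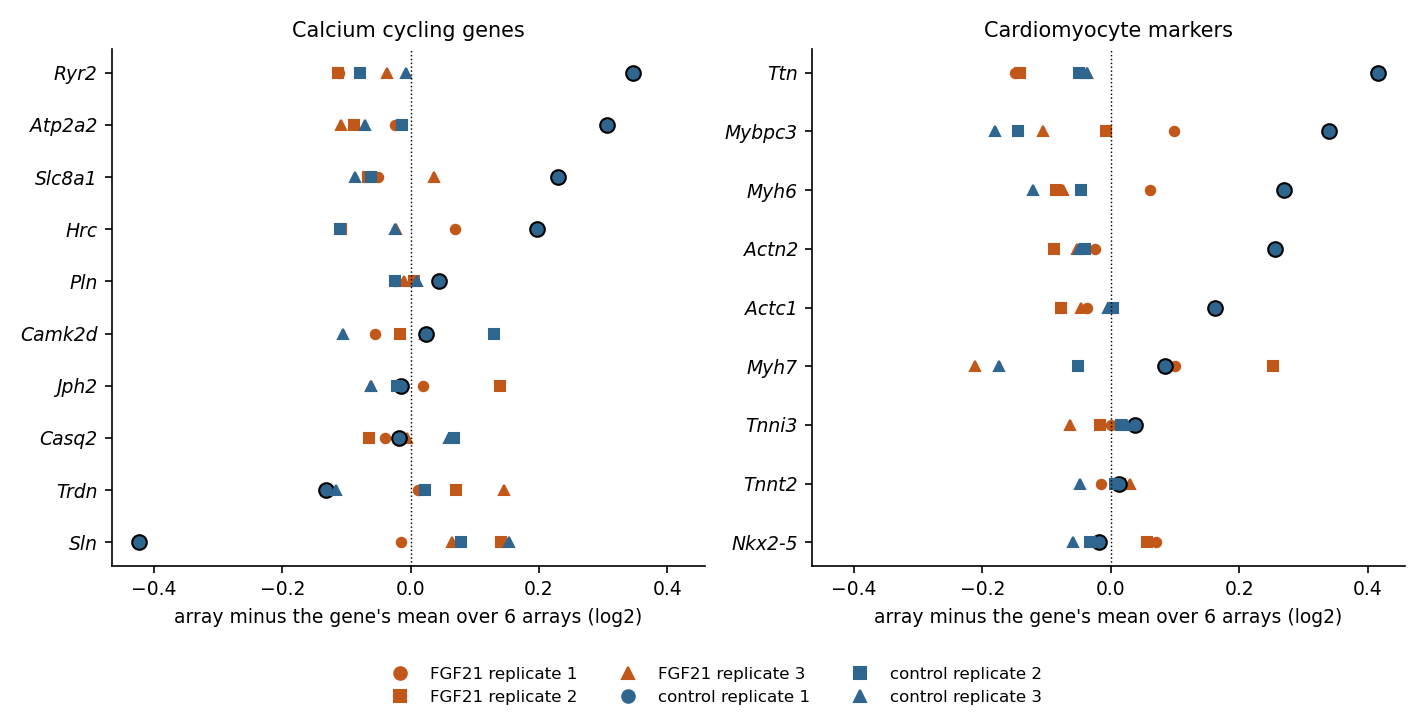
Each array's level minus the gene's mean over the 6 arrays, in log2 units, for the 10 calcium cycling genes (left) and 9 cardiomyocyte markers (right), with genes ordered by control replicate 1, drawn as a large black-edged circle. Ryr2, Atp2a2, Slc8a1 and Hrc lie to the right on that array together with Ttn, Mybpc3, Myh6 and Actn2, while Sln lies to the left.

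Some markers of cell types were also high on that array. Of 9 cardiomyocyte markers, 6 were highest on control replicate 1, where 19.6% of all genes were. Ttn, the giant spring protein of the sarcomere, was 0.50 above the mean of the other arrays there, Mybpc3 0.41, Myh6 0.32 and Actn2 0.31, but Tnnt2 only 0.02. Actc1 was at 0.19, Myh7 at 0.10, Tnni3 at 0.04 and Nkx2-5 at -0.02. The mean level of the 9 markers was 10.94 on that array and 10.70 to 10.78 on the other 5. Of 10 endothelial markers, 7 were highest there too, with Kdr, the VEGF receptor gene, 0.86 above the others, while Tek was at -0.13. In other lists, 4 of 8 smooth muscle and pericyte markers and 4 of 10 fibroblast markers were highest there, and 3 fibroblast markers lowest. Fewer atrial (1 of 10), ventricular (1 of 6), leukocyte (1 of 8) and skeletal muscle markers (0 of 8) were highest on it. The mean of the endothelial list was 7.53 on control replicate 1, 7.31 to 7.53 over the controls and 6.98 to 7.22 with FGF21. Of its 10 genes, 8 had groups apart, all lower with FGF21, where 8.14% of all genes were apart and lower. The part of these markers in the values of Ryr2, Atp2a2, Slc8a1, Hrc and Sln was not tested. In bulk samples, fewer cells of a type and less RNA per cell cannot be told apart.

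The labelled cell type was checked against its defining markers. All 9 cardiomyocyte markers were above the median gene in mean level, from Myh7 at the 73.5th percentile to Tnnt2 at the 99.95th. All 10 fibroblast markers and 9 of 10 endothelial markers were above it as well, as were 3 of 8 skeletal muscle markers. Since probe sets differ in response, these ranks do not measure how much RNA came from each cell type. Between groups, cardiomyocyte markers had a median difference of -0.05 (0 of 9 at a limma unadjusted p under 0.05), ventricular markers -0.01 (0 of 6), fibroblast markers -0.01 (0 of 10), leukocyte markers 0.03 (2 of 8) and smooth muscle and pericyte markers -0.04 (3 of 8). Skeletal muscle markers had a median of -0.05 (1 of 8). Over all genes, 11.7% had a limma unadjusted p under 0.05, 5.11% lower and 6.59% higher. Endothelial markers had the median of largest size, -0.31 (8 of 10, all lower), with a lowest adjusted p of 0.191. Erg and Kdr, those of smallest p, differed by -0.35 and -0.61, or -0.29 and -0.41 without control replicate 1. Among the smooth muscle and pericyte markers, Kcnj8 stood at 7.13, 7.39 and 7.24 with FGF21 and 7.96, 8.01 and 7.75 without, a difference of -0.65 ± 0.09 (limma adjusted p of 0.0685), and Rgs5 differed by -0.49 ± 0.15 (adjusted p of 0.281; -0.28 without FGF21 replicate 1). Over the 16 alternatives the adjusted p of Kcnj8 ran from 0.0208, with genes of lower than median level removed, to 0.432, with the ordinary statistic, and was under 0.05 in 4. As sarcolipin is mainly atrial, atrial markers were read beside Sln. Of 10, 9 had higher means with FGF21, with a median difference of 0.09. Over all genes 52.2% were lower, but only 37.4% of those above the median level. In limma 2 of the 10 had an unadjusted p under 0.05: Bmp10 at 0.32 ± 0.09 (SE) and Stard10 at 0.19 ± 0.07. Neither passed over all genes (adjusted p of 0.249 and 0.335). The mean of the atrial list was 8.15 to 8.20 with FGF21 and 8.02 to 8.10 without. It was lowest on control replicate 2, at 8.02, while Sln was lowest on control replicate 1, where the list was at 8.10. Whether the share of atrial cells had a part in the Sln values was not tested.

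The balance between genes that work on the same step was compared within arrays, for 5 pairs. A difference of log2 levels within an array is no ratio of transcripts, since probe sets differ in response, but its change between groups shows unequal change. Pln minus Atp2a2, the inhibitor against its pump, was -0.09, 0.01 and 0.01 with FGF21 and -0.35, -0.10 and -0.0045 without. The groups differed by 0.13, with an exact two-sided permutation p of 0.2, where 0.1 is the smallest that 3 against 3 arrays allow. Without control replicate 1 the value was 0.03. Slc8a1 minus Atp2a2, calcium leaving the cell against calcium returned to the store, was -2.66, -2.61 and -2.49 with FGF21 and -2.71, -2.68 and -2.65 without. Only the first FGF21 array lay within the controls, and the difference was 0.09 (exact permutation p of 0.2), or 0.04 without FGF21 replicate 3. Sln minus Atp2a2 differed by 0.28 (exact permutation p of 0.6), with -4.10 on control replicate 1 and -3.36 to -3.14 on the other 5 arrays. Without that array the difference was -0.02.

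Ryr2 minus Atp2a2 kept within -1.53 to -1.37 on all 6 arrays, control replicate 1 included at -1.40. Release channel and pump were thus high together on that array, and the groups differed by only -0.03 (exact permutation p of 0.8). Casq2 minus Ryr2 was 0.02 on control replicate 1 and 0.41 to 0.53 on the others, with a group difference of 0.10 (exact permutation p of 0.9), which turned to -0.06 without control replicate 1. Adjusted over the 5 pairs, the p-values were 0.5 for the first 2 pairs described and 0.9 for the other 3.

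**Figure D4:**
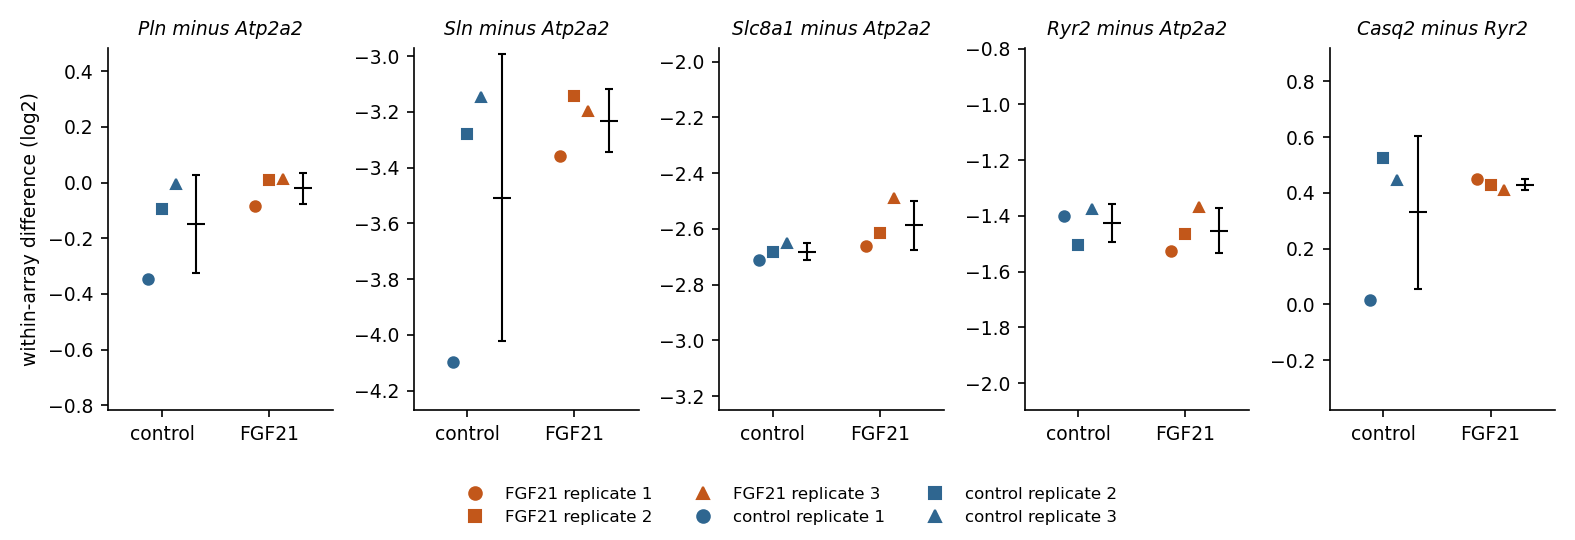
Within-array difference of log2 levels for 5 pairs of genes, with controls in blue, FGF21 in orange, symbols for the replicate number and black bars for the mean and SD of 3 arrays; every panel spans 1.3 log2 units. Control replicate 1 lies far below the other arrays for Sln minus Atp2a2 and Casq2 minus Ryr2, but among them for Ryr2 minus Atp2a2.

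The close relatives of these genes were measured too, 13 of 13. They include the ryanodine receptors, pumps and calsequestrin of skeletal muscle and other tissues. None passed over all genes in limma, and 1 had an unadjusted p under 0.05, beside 11.7% of all genes. This was Camk2b, a CaMKII subunit best known from brain, at 6.23, 6.10 and 6.34 with FGF21 and 6.81, 6.36 and 6.63 without. The groups were apart, with a difference of -0.38 ± 0.11 (limma adjusted p of 0.265), or -0.27 without control replicate 1. Camk2g, another subunit, had a difference of 0.16 ± 0.09, or 0.10 without either FGF21 replicate 2 or control replicate 3, and Camk2a one of -0.08 ± 0.10. The pump gene Atp2a3 had a difference of -0.22 ± 0.10 (-0.11 without control replicate 1), Jph4 one of -0.15 ± 0.07 (-0.09 without control replicate 2) and Jph3 one of 0.13 ± 0.06, none past limma (adjusted p from 0.435 to 0.467). The remaining relatives, Ryr1, Ryr3, Atp2a1, Casq1, Jph1, Slc8a2 and Slc8a3, differed by -0.09 to 0.09. The rows of 7 of the 13 relatives were below the median gene in mean level: Ryr1, Ryr3, Atp2a1, Atp2a3, Jph3, Slc8a2 and Slc8a3. Jph3 was above only 21.6% of genes. Whether such rows stood above background was not tested.

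Other genes of calcium handling were read from 5 lists, and with the relatives 87 of 100 written genes were measured. In limma, 0 of 87 passed over all genes, and 10 had an unadjusted p under 0.05, a share of 11.5% beside the 11.7% of all genes. Of these, 6 had higher and 4 lower means with FGF21. Leaving out FGF21 replicate 2 gave 5 in place of 10, with 7.71% of all genes called, and leaving out FGF21 replicate 1 gave 15, with 13.65%. Of the 10 genes, Prkar2a and Prkca had an unadjusted p under 0.05 in all 16 alternatives, and the other 8 in 7 to 15 of them. With the replicate number as a block, Atp2b1 and Fxyd1 were no longer among the calls (unadjusted p of 0.0608 and 0.0554) and Srl and Atp2a3 joined them (0.0428 and 0.0120). Over the 87 genes, 43 had higher and 44 lower means, with a median difference of -0.0029.

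Among 14 measured genes of release and storage, 2 had an unadjusted p under 0.05. Tmem38a, which encodes the potassium channel TRIC-A of the store's membrane, stood at 8.97, 9.06 and 8.98 with FGF21 and 9.27, 9.23 and 9.10 without, a difference of -0.20 ± 0.07 (limma adjusted p of 0.335). Every FGF21 value lay below every control. Selenon, a selenoprotein of the reticulum, had a difference of 0.25 ± 0.09 (adjusted p of 0.358). Srl, which encodes sarcalumenin, a calcium-binding protein of the store, had a difference of -0.18 ± 0.08 (adjusted p of 0.451), or -0.09 without control replicate 1. Of 7 regulators of uptake and other pumps, 6 had higher means with FGF21. Over all genes 52.2% were lower, but only 37.4% of those above the median level, where 5 of the 7 lay. The lowest p was that of Atp2b1, a calcium pump of the cell surface, at 0.15 ± 0.06 (limma adjusted p of 0.398). Hax1, which binds phospholamban, was at 0.12 ± 0.07 (0.07 without control replicate 1) and Mrln, a pump inhibitor of skeletal muscle, at 0.125 ± 0.075, neither past an unadjusted p under 0.05. Mrln was dim, above 17.8% of genes, and its difference was 0.07 without FGF21 replicate 1.

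Among 24 measured kinases, phosphatases and their partners, 3 had an unadjusted p under 0.05. Prkar2a, a regulatory subunit of protein kinase A, stood at 8.20, 8.25 and 8.12 with FGF21 and 7.97, 7.83 and 7.84 without. The groups were apart, with a difference of 0.31 ± 0.07, and limma gave an adjusted p of 0.179, the lowest of the 87 genes. It stayed between 0.24 and 0.35 over the alternatives, and its adjusted p between 0.0960 and 0.490. Prkca, protein kinase C alpha, which affects the pump through phospholamban, stood at 8.29, 8.16 and 8.17 with FGF21 and 7.97, 7.93 and 7.92 without, a difference of 0.27 ± 0.07 (limma adjusted p of 0.208). Its groups were apart as well. Pde4b, a phosphodiesterase that breaks down cyclic AMP, had a difference of -0.19 ± 0.08 (adjusted p of 0.379), or -0.12 without control replicate 1. The list as a whole went both ways, 10 genes higher and 14 lower, with a median of -0.01. Above the median level, where 23 of the 24 lay, 37.4% of genes were lower, and 52.2% over all genes.

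Of 19 measured genes of calcium entry and extrusion at the cell surface, 6 had higher and 13 lower means, and 2 had an unadjusted p under 0.05. Stim2, a sensor of calcium in the reticulum, was at 0.21 ± 0.07 (limma adjusted p of 0.290) and Fxyd1, which encodes phospholemman, a regulator of the sodium pump, at -0.15 ± 0.06 (adjusted p of 0.421). Orai1, the channel that such sensors open, was at -0.13 ± 0.07 (adjusted p of 0.491), or -0.08 without FGF21 replicate 1. Of 10 mitochondrial calcium genes, 7 had higher means and Micu2, a gatekeeper of the mitochondrial uniporter, the lowest p, at 0.17 ± 0.06 (limma adjusted p of 0.343). For both lists, the shares lower were 52.2% of all genes and 37.4% of those above the median level. There lay 17 of the 19 surface genes and 9 of the 10 mitochondrial ones. Micu3, a relative of it, was at 0.15 ± 0.14 and Vdac2, a channel of the outer membrane, at -0.08 ± 0.07. For Vdac2, leaving out control replicate 2 gave -0.13, and leaving out control replicate 1 or FGF21 replicate 2 gave -0.05. Micu3 ranged from 0.03 without control replicate 3 to 0.30 without FGF21 replicate 1.

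The sequence before the start of transcription was available from RefSeq (GRCm38.p6) for 7 of the 10 genes. The 250 bases upstream of each start were searched on both strands for 4 short motifs. The motifs were picked after sequences or values were seen, so the shares below are no test of the 7 genes. A gene was counted if any of its entries held a match, with 8 entries for the 7 genes. All promoters were counted by entry. CTAAAAAT, a core of sites for MEF2, a transcription factor of muscle genes, was in 2 of the 7, Casq2 and Hrc, and in 1.01% of all 32851 promoters in the table. ACGTG, part of the element bound by hypoxia-inducible factors, was in 3 of the 7, Ryr2, Pln and Hrc, and in 16.6% of all promoters. The E-box CAGCTG was in 2 of the 7, Jph2 and Hrc, and in 13% of all, while AGATAA, which the GATA factors of the heart can bind, was in 2 of the 7, Pln and Slc8a1, and in 9.99% of all. A match describes letters in this window, not binding, and none was measured. The stretches that hold the first 2 motifs are shown because muscle identity and low oxygen are shared by all 6 samples. They run 5′ to 3′ on the gene's strand, with matches on either strand in capitals.
Casq2, chr3:102086318-102086410, + strand: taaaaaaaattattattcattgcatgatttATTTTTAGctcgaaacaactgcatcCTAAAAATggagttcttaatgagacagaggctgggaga
Hrc, chr7:45335019-45335082, + strand: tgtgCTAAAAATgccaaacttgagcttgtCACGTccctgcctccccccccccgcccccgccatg
Pln, chr10:53337614-53337678, + strand: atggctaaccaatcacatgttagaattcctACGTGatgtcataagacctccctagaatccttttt
Ryr2, chr13:12107155-12107195, - strand: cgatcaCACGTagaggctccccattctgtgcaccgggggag
Casq2 held the MEF2 core in both orientations, at 67 to 60 and 42 to 35 bases before its start, and Hrc held it at 246 to 239 bases. Between groups, the 2 genes with this core had differences of -0.07 and -0.04, and the 3 with ACGTG -0.17, -0.02 and -0.04, none past limma.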

How the data were processed

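Expression was deposited by the authors as log2 values from RMA, for which the submitters' processing notes name R 3.2.2 and affy. This method gives all arrays like distributions and shrinks differences where signal is low. The chip definition is not given in the sources used here. Rows were named through the platform annotation: of 41345 rows, 23521 had 1 symbol. For genes with several rows, the one with the highest mean was used. Values ran from 3.23 to 13.7. Array medians over all rows were 5.76 to 5.79 with FGF21 and 5.81 to 5.83 in controls, so every FGF21 array lay below every control. Median centring gave a difference of -0.154 for Ryr2 in place of -0.174, and of 0.172 for Trdn in place of 0.152. Whether this offset had a part in the lower means with FGF21 was not tested. The number of arrays limits the precision.

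FGF21 minus control was fitted over 22180 genes on 6 arrays by limma (version 3.58.1, lmFit and eBayes, two-sided; R 4.3.3), with Benjamini-Hochberg adjustment over all genes at 0.05 and 95% intervals. The fit was tested on simulated data with independent noise and planted differences larger than those of the members. Detection of smaller differences was not tested. Pairs used exact permutation. The genes and lists were chosen with earlier results of these data known. Named were all members, their relatives, the 3 genes of lowest p per pathway list, and markers beside a result they touch; motifs, and the markers named for control replicate 1, were picked after sequences or values were seen. Alternatives were the replicate number as a block, each array left out, other row rules, filters, normalizations, priors and weights.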

Additional observations from a re-analysis of the deposited data

How the results depend on the processing

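Under each of 16 alternatives, 0 of the 10 genes passed at an adjusted p under 0.05, while 0 to 58 of all genes did in limma. At an unadjusted p under 0.05 the count was 1 after median centring (11.9% of all genes) and 1 with the trend and robust prior (11.7%), and it ran from 0 to 2 with an array left out (7.71% to 13.65%; 2 without control replicate 2, against 12.2%). The number of genes with groups apart ran from 0 to 3 with an array left out, against 24.0% to 32.8% of all genes, so these counts were near the background. The median difference ran from -0.0628 to -0.0160 with an array left out and was -0.0755 with quantile normalization applied again. Signs turned for small differences and for some larger ones. With all arrays kept, Sln differed by 0.128 and Sln minus Atp2a2 by 0.275. Both turned without control replicate 1. The cause of the turned signs was not tested. With an array left out, differences ran from -0.0520 (without control replicate 1) to 0.236 for Sln, from -0.111 to 0.0478 (without control replicate 1) for Slc8a1, and from -0.106 to 0.0470 (without control replicate 1; 0.0028 without FGF21 replicate 2) for Hrc. They ran from -0.0937 to 0.0238 (without control replicate 2) for Camk2d and from -0.0073 (without control replicate 3) to 0.190 for the ventricular marker Irx4. Within arrays they ran from -0.0201 (without control replicate 1) to 0.457 for Sln minus Atp2a2, from -0.0688 to 0.0105 (without FGF21 replicate 1) for Ryr2 minus Atp2a2, and from -0.0568 (without control replicate 1) to 0.199 for Casq2 minus Ryr2. Jph2 was at -0.0012 with quantile normalization applied again and Pln at 0.00015 with median centring.

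Same-numbered arrays deviated with correlations from 0.00653 to 0.158, and differently numbered ones from -0.160 to 0.0416. Those of numbers 1 and 2, at 0.103 and 0.158, lay above all differently numbered ones. These values do not settle whether the numbers pair the samples, and the labels do not say. The fit without the block was kept as the main one and the block as an alternative. With the replicate block, 0 of the 10 genes passed at an adjusted p under 0.05 in limma and 0 at an unadjusted one, against 13.1% of all genes, and Trdn had an unadjusted p of 0.0634. Of the 87 pathway genes 10 were called with the block and 10 without, of which 8 were shared.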
